A study of Mus musculus with 10 samples.

Results

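Translation initiation factors are the proteins that bring the ribosome, the initiator methionyl-tRNA and the mRNA together at the start codon. The set held every protein-coding gene of the count table whose name begins with Eif1 to Eif6, without the eIF2 kinases (names beginning with Eif2ak), which came to 51 of 54532 genes. They were compared in hearts of 8-week-old C57BL/6 mice, 5 injected with saline and 5 taken 24 h after lipopolysaccharide (LPS), the endotoxin of Gram-negative bacteria, used to model sepsis. All mice carry the same background strain and no genetic change is given, and the labels give neither sex, dose nor batch. The libraries are numbered within each group, and nothing else is given that ties a number to an animal, so that p-values measure the spread between these libraries.

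In initiation, eIF2 bound to GTP delivers the initiator tRNA to the small ribosomal subunit, eIF3 is the scaffold on that subunit, and eIF1, eIF1A and eIF5 govern the choice of the start codon. The cap-binding complex eIF4F, made of eIF4E, eIF4G and the helicase eIF4A, recruits the mRNA, and eIF4E-binding proteins (4E-BPs) block eIF4E until the kinase mTOR phosphorylates them. The exchange factor eIF2B recharges eIF2, and kinases that phosphorylate eIF2 inhibit this step and lower overall protein synthesis under stress. Only mRNA was measured here, so nothing is shown of phosphorylation, protein or translation.

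Total counts ran from 14607969 to 17012372 reads per library. On a leading principal component (91.0% of the variance of the 1000 genes that varied most), 4 saline libraries lay between -67.0 and -55.1, the LPS libraries between 43.7 and 55.0, and saline replicate 5 at -0.563. The summed level of 10 interferon-response genes was 4180 CPM (counts scaled by library size and TMM factor) in saline replicate 5, at most 421 in the other saline libraries and 8383 to 16145 in LPS libraries. The counts of called factors and the values of several genes are therefore given with and without this library. Cardiomyocyte markers marked the tissue in both groups: the 6 genes summed to between 35237 and 43177 CPM in saline and between 38644 and 41093 in LPS libraries, and none passed the test. All 5 endothelial markers fell (summed level 757 to 1335 CPM in saline and 439 to 564 in LPS), as did 2 of 6 macrophage markers (199 to 281 CPM and 153 to 213). Of 5 pericyte and smooth muscle markers, Kcnj8 and Pdgfrb fell (summed level 1031 to 1314 CPM in saline and 806 to 1014 in LPS, without overlap), and of 5 fibroblast markers Pdgfra fell (1132 to 1373 CPM and 989 to 1293). No red cell or skeletal muscle marker passed the test. Of the 3 tested neutrophil markers, S100a8 rose, and all 6 summed to 0.954 to 16.3 CPM in saline and 6.80 to 28.1 in LPS libraries (the highest saline value and the lowest endothelial sum were those of saline replicate 5), with the defining genes Ly6g and Mpo at 9 and 5 reads over all libraries, and lymphocyte markers to at most 2.90 CPM. The part of these cell types in the results below was not tested, and in bulk tissue fewer cells of a type and less RNA per cell cannot be told apart.

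Of the 51 genes, 49 passed the filter on low counts. Eif4e1b, an oocyte form of the cap-binding protein, had no read in any library, and Eif4ebp3, the least studied 4E-BP, had 15 reads in all. At an adjusted p under 0.05 (edgeR's quasi-likelihood F-test, Benjamini-Hochberg over 13864 genes), 18 of 49 initiation factors rose and 2 fell with the usual TMM scaling, but with total count scaling 5 rose and 12 fell. Among all tested genes 18.9% rose and 21.0% fell with TMM, against 36.7% and 4.08% of the initiation factors. With total count scaling 12.3% of all genes rose and 41.6% fell. The 29 factors not called had 20 estimates above 0 and 9 below.

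The median log2 fold change of the 49 factors was 0.20, beside -0.02 over all tested genes. Total count scaling moved the median of all genes by -0.27 and upper quartile scaling by -0.16. The distance from the factors' median to that of all genes changed little: TMM gave 0.23, upper quartile scaling 0.23 and total count scaling 0.24. Fold changes are given below on the TMM scale, and a value under about 0.27 can change sign with the total count. Of the 18 rising factors, 13 kept a positive estimate with total count scaling and 5 were still called (Eif1a, Eif6, Eif4a1, Eif4a3 and Eif2s2). The 12 that fell with total count scaling were Eif1b, Eif2b4, Eif2d, Eif3f, Eif3h, Eif3k, Eif4a2, Eif4b, Eif4e2, Eif4ebp2, Eif4g3 and Eif5a2. Upper quartile scaling gave 10 rising and 6 falling factors, beside 14.4% and 31.8% of all genes. These 6 were Eif1b, Eif2b4, Eif4b, Eif4ebp2, Eif4g3 and Eif5a2.

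Without saline replicate 5, 23 factors rose and 2 fell, beside 21.0% and 22.9% of all genes. Of the 18 rising factors 17 kept their call, Eif3d lost it, and Eif2s3y, Eif3a, Eif3b, Eif3e, Eif3j1 and Eif3j2 gained one. Leaving out any other single library gave between 11 and 19 rising factors, with 11 each without saline replicate 3 or 4, and 2 falling. In these fits 16.3% to 19.1% of all genes rose and 16.8% to 21.9% fell. Of the 20 called factors, 13 kept their call in each of the 10 fits that left out 1 library. All 5 LPS libraries lay above all saline libraries for 11 factors and below for 2, beside 14.3% and 14.1% of all tested genes.

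**Figure D1:**
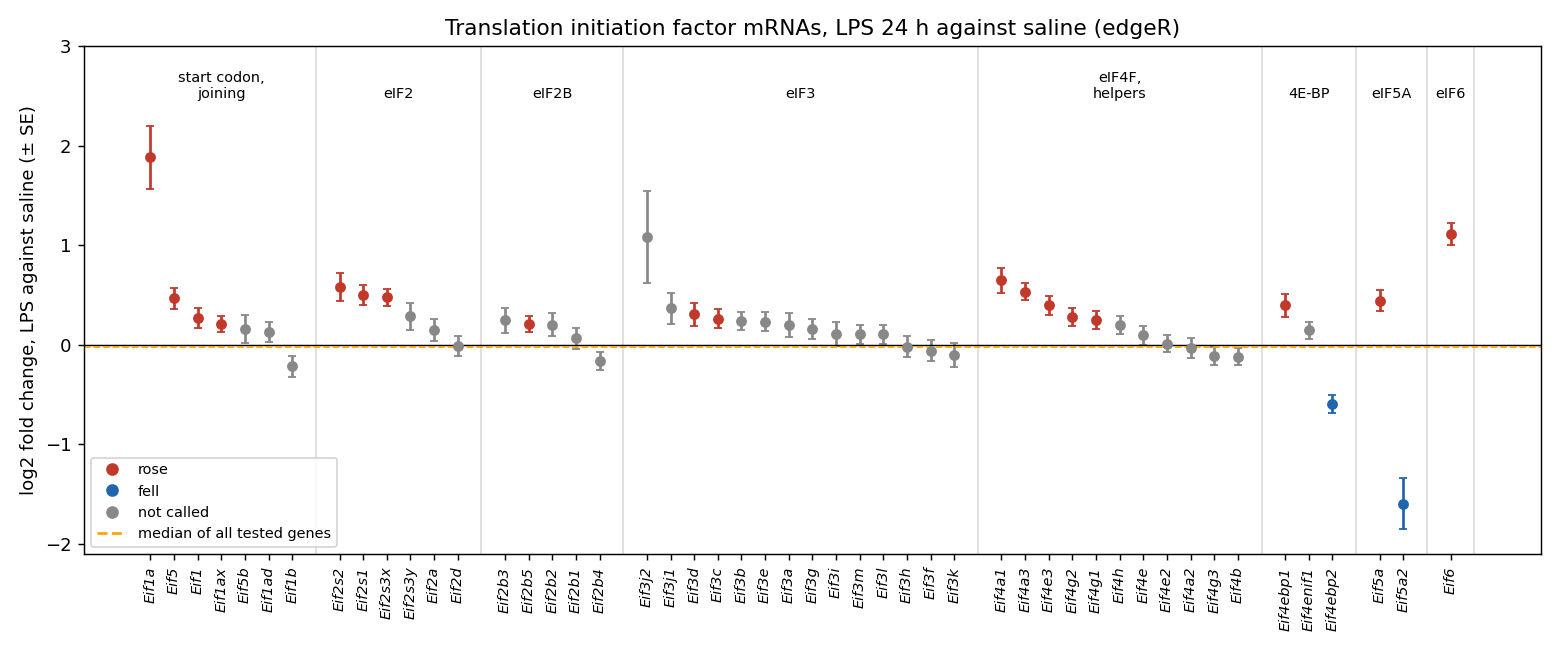
Log2 fold change (± SE, TMM scaling) of the 49 tested initiation factors, LPS against saline, grouped by complex, with 5 libraries per group. Red points rose (18), blue points fell (2) and grey points passed no threshold, the dashed line is the median of all tested genes (-0.02), and with total count scaling 12 factors fell and 5 rose.

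**Figure D2:**
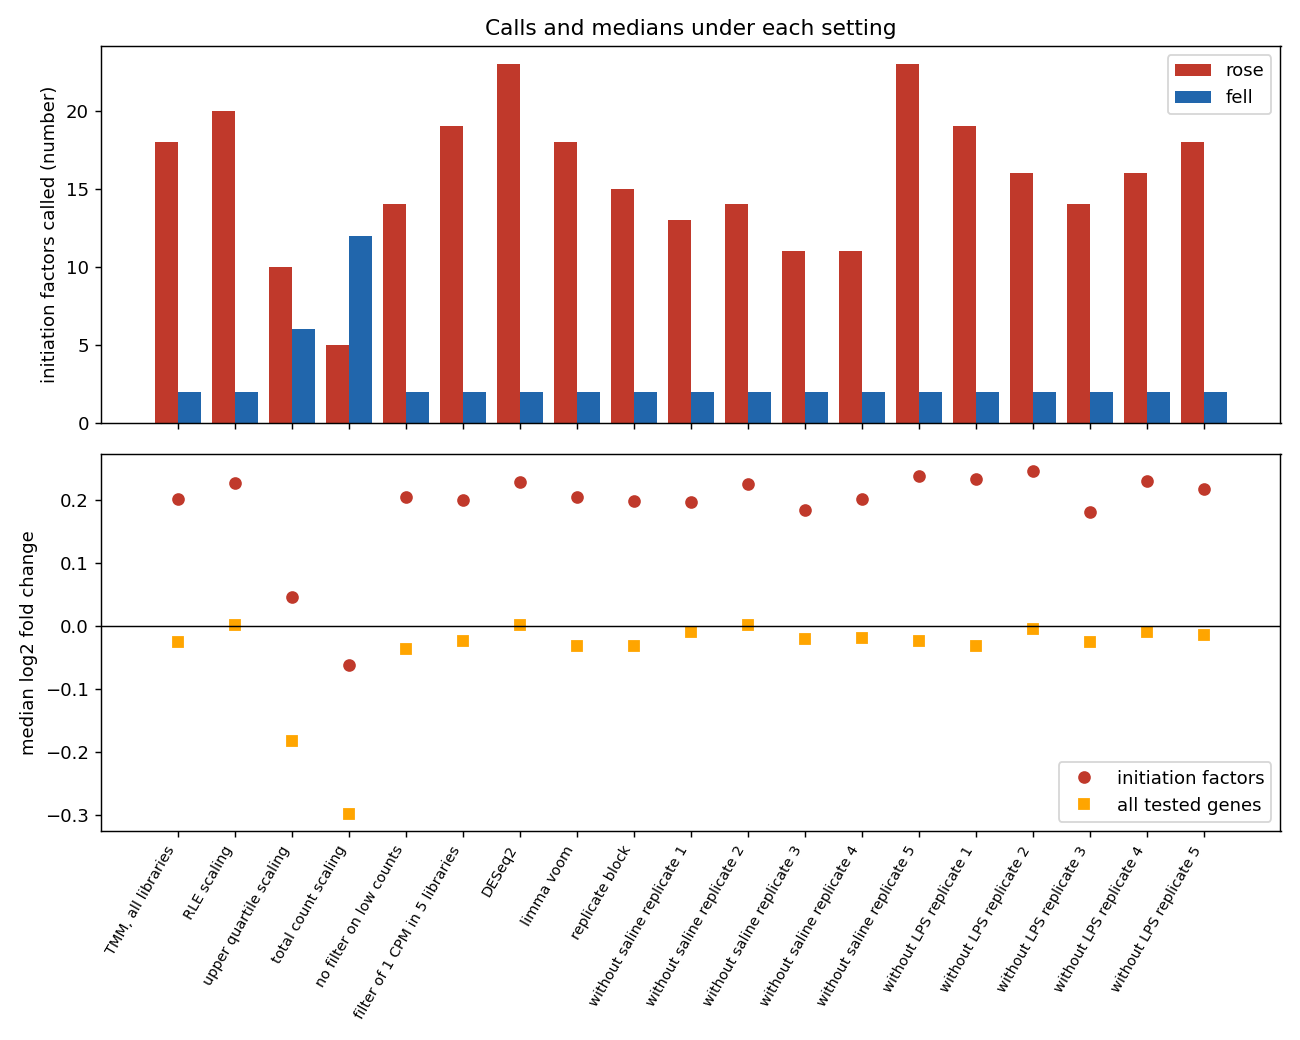
Number of initiation factors that rose or fell (bars, upper panel) and the median log2 fold change of the factors and of all tested genes (points, lower panel) under each analysis setting. Rising factors number 5 with total count scaling and 23 without saline replicate 5, where 12.3% and 21.0% of all genes rose. The 2 medians keep their distance under the 3 scalings named in the text, as a change of scaling shifts both by nearly the same amount.

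Per length, the mRNA for eIF1 was the most abundant initiation factor mRNA in saline hearts, at 187 ± 15.9 FPKM (reads scaled to gene length and library size, the authors' values; SD, n = 5). The order between genes depends on the gene lengths used, which need not be those of the transcripts present. Eif1 was followed by Eif5a at 107 ± 6.88, Eif4g2 at 97.7 ± 7.15, Eif3h at 95.6 ± 5.02, Eif4a2 at 70.5 ± 6.29 and Eif4g1 at 63.1 ± 5.21 FPKM. The neighbours Eif5a, Eif4g2 and Eif3h differed by less than the sum of their SDs, as did Eif4a2 and Eif4g1. The lowest tested factor was Eif5a2 at 0.719 FPKM. By complex, the saline levels ran from 1.80 (Eif2b3) to 19.6 FPKM (Eif2b5) in eIF2B and from 3.33 (Eif2d) to 13.1 (Eif2s3x) among the eIF2 genes. The subunit genes of eIF2 itself, without Eif2a and Eif2d, lay close together: Eif2s1 at 10.6, Eif2s2 at 11.9, Eif2s3x at 13.1 and Eif2s3y at 11.7 FPKM. In eIF3 the highest was Eif3h at 95.6 FPKM. Its lowest was Eif3j2 at 1.43, a copy of Eif3j1 that may share reads with it, and Eif3d had 5.83. The subunit mRNAs of eIF2B and eIF3 were therefore not at one level.

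**Figure D3:**
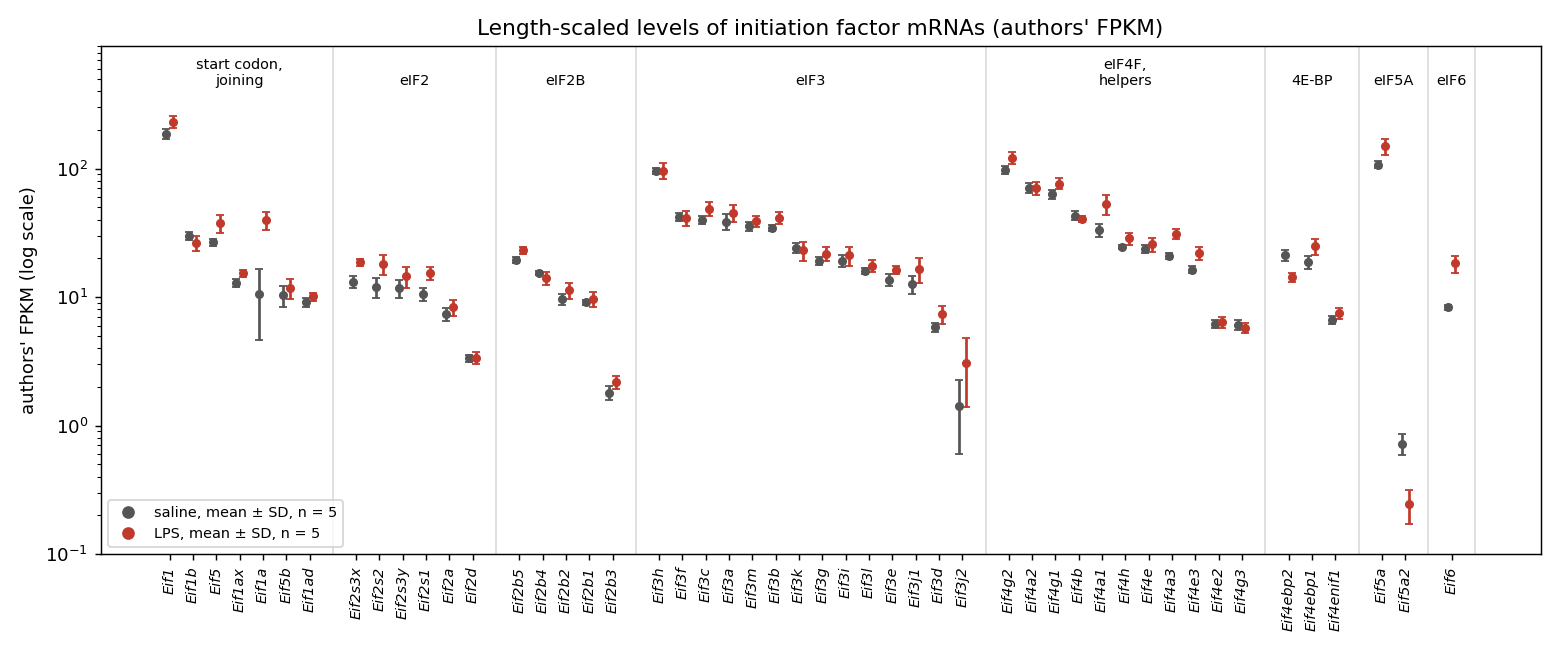
The authors' FPKM (log scale, mean ± SD of 5 libraries per group) of each tested initiation factor, grouped by complex, with saline in grey and LPS in red. Eif1 is highest at 187 FPKM in saline and Eif5a2 lowest at 0.719, and the 2 groups lie far apart for Eif1a, Eif6 and Eif5a2.

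Of 7 tested genes of start codon selection and subunit joining, 4 rose and none fell, with a median log2 fold change of 0.21. With TMM the 4 were 57.1%, whereas 18.9% of all genes rose and 21.0% fell. With total count scaling 1 rose and 1 fell, with a median of -0.06, beside 12.3% and 41.6% of all genes. Eif1a, one of 2 genes for eIF1A, which stabilizes the scanning ribosome and closes it on the start codon, had the largest log2 fold change of all initiation factors. It had 20.0, 24.4, 20.7, 21.7 and 57.4 CPM in saline replicates 1 to 5, and 104, 115, 83.8, 130 and 98.8 CPM in the LPS libraries. Every LPS library was above every saline library, and saline replicate 5, which also had the high interferon-response sum, stood above the other 4. The log2 fold change was 1.88 ± 0.31 (SE; edgeR adjusted p = 0.00115), and 2.29 without saline replicate 5 (adjusted p = 1.1e-09). 

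The X-linked paralog Eif1ax, from 64.7 ± 4.19 to 74.9 ± 4.11 CPM (SD, n = 5), rose by 0.21 ± 0.08 (adjusted p = 0.0476), and its estimate was -0.06 with total count scaling. Its call was lost in 6 of the 10 fits that left out 1 library (adjusted p up to 0.104), those omitting saline replicates 1 to 4 and LPS replicates 2 and 4. Eif1a took 25.0%, 27.3%, 24.5%, 25.5% and 44.6% of the reads of both genes in saline replicates 1 to 5. In LPS replicates 1 to 5 it took 59.8%, 58.7%, 53.6%, 63.0% and 56.9%. So Eif1ax held most of these reads in each saline library and Eif1a in each LPS library, a ratio that does not depend on scaling. It does depend on length, at 5266 bases for Eif1ax and 2879 for Eif1a. Per length the saline means were closer, at 12.9 ± 0.881 FPKM for Eif1ax and 10.6 ± 5.93 for Eif1a (SD, n = 5). In LPS hearts they were 15.3 ± 0.838 and 39.6 ± 6.43 FPKM. Both genes encode nearly the same protein, and the treatment of reads shared by close copies is not stated, so the split is uncertain.

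Eif5, the GTPase-activating protein for eIF2, had 161, 173, 164, 179 and 188 CPM in saline and 194, 226, 230, 252 and 291 CPM in LPS libraries. The groups did not overlap, and the log2 fold change was 0.47 ± 0.11 (adjusted p = 0.00294). Eif1, the gatekeeper of start codon stringency, had 327, 404, 366, 367 and 399 CPM in saline and 437, 458, 472, 511 and 370 CPM in LPS libraries. LPS replicate 5 lay inside the saline range. Eif1 rose by 0.27 ± 0.10 (adjusted p = 0.0403) with TMM, but its estimate was -0.0042 with total count scaling, and no call was left (adjusted p up to 0.0866) when saline replicate 1, 3 or 4 was omitted, or LPS replicate 2, 3 or 4.

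Eif1b, a close paralog of Eif1, was lower on average in LPS but passed no threshold with TMM. With total count and upper quartile scaling Eif1b fell (log2 fold change -0.49 and -0.38, adjusted p = 0.00358 and 0.0129). It had 30.4, 35.2, 32.5, 32.8 and 28.8 CPM in saline and 25.7, 26.4, 32.2, 30.3 and 22.8 CPM in LPS libraries, with overlap (log2 fold change -0.22 ± 0.11, adjusted p = 0.123). The ratio of Eif1b to Eif1 reads within a library was 0.0930, 0.0870, 0.0889, 0.0895 and 0.0720 in saline and 0.0588, 0.0576, 0.0683, 0.0593 and 0.0615 in LPS libraries. Each LPS ratio was below each saline ratio, by 0.49 on the log2 scale on average (exact permutation test, two-sided, p = 0.00794, the smallest that 5 against 5 libraries allow; adjusted p = 0.0127 over 8 ratios). The ratio of Eif1 to Eif5, 2.15 in saline and 1.89 in LPS, passed no threshold (exact p = 0.198, adjusted p = 0.227), although its adjusted p in the exact test was 0.0317 when LPS replicate 1 was omitted. Eif5b, the GTPase of subunit joining, and Eif1ad, which carries an eIF1A-like domain, had log2 fold changes of 0.16 and 0.13 (adjusted p = 0.390 and 0.325).

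The 3 subunit genes of eIF2, which forms the ternary complex with GTP and the initiator tRNA, rose together, Eif2s1 (alpha, the subunit that stress kinases phosphorylate), Eif2s2 (beta) and Eif2s3x (gamma, which binds GTP and the initiator tRNA). The 250 bases before the annotated start of each are shown because these genes of one complex moved in the same direction. They are from RefSeq's GRCm38.p6 annotation, 5′ to 3′ on the strand of the gene, at chr12:78861822-78862071 (plus strand), chr2:154892907-154893156 (minus) and chrX:94212652-94212901 (minus), with motif matches in capitals.
Eif2s1: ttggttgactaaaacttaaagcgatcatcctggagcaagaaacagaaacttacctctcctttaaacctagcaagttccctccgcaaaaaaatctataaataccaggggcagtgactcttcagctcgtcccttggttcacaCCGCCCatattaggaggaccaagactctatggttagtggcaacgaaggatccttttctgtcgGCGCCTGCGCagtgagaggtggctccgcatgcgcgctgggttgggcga
Eif2s2: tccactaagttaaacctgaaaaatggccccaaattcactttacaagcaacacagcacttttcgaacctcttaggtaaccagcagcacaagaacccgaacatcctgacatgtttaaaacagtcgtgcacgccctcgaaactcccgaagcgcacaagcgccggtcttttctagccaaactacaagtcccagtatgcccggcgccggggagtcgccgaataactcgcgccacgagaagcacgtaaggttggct
Eif2s3x: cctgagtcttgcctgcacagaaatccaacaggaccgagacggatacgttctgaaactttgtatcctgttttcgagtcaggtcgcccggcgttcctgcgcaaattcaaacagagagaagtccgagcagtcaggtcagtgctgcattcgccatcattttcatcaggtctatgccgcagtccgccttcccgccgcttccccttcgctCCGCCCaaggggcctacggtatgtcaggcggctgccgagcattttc
Capitals mark GGGCGG (the GC box), the NRF1 motif (GCGC, any base, then TGCGC) or CACGTG (the E-box), searched on both strands, and none of the matches overlap. Eif2s1 held an NRF1 motif whose first base lay 48 bases before the start and a GC box on the other strand at 110, Eif2s3x held a GC box on the other strand at 46, and Eif2s2 held none of the 3. A GC box was in the same window of 74.4% of the 39 initiation factors in the RefSeq table, of 58.5% of 10232 tested genes and of 32.9% of all 27025 genes there. For the NRF1 motif these shares were 10.3%, 8.06% and 3.86%, and for the E-box 17.9%, 8.47% and 6.05%. A match describes the letters only.

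Eif2s1 had 42.3, 50.7, 51.4, 47.8 and 57.8 CPM in saline and 65.5, 67.7, 62.6, 80.4 and 76.9 CPM in LPS libraries. Eif2s3x had 48.5, 41.6, 49.2, 44.7 and 53.7 CPM in saline and 62.2, 65.1, 63.2, 69.5 and 70.6 CPM in LPS libraries. For both, every LPS library was above every saline library, with log2 fold changes of 0.50 ± 0.10 and 0.48 ± 0.09 (adjusted p = 0.00138 and 0.00061). Eif2s2 had 59.6, 73.5, 72.5, 78.9 and 96.3 CPM in saline and 99.6, 110, 89.8, 139 and 129 CPM in LPS libraries. LPS replicate 3 lay below saline replicate 5, and the log2 fold change was 0.58 ± 0.14 (adjusted p = 0.00468). With total count scaling the estimates stayed positive at 0.23, 0.20 and 0.30 for Eif2s1, Eif2s3x and Eif2s2, with adjusted p = 0.0537, 0.0671 and 0.0405.

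The Y-linked gamma subunit gene Eif2s3y had between 699 and 957 reads in each library. Its log2 fold change of 0.29 ± 0.14 passed no threshold (adjusted p = 0.107), and was 0.38 when saline replicate 5 was omitted (adjusted p = 0.0279). Reads shared by the X and Y copies may have been split between them. Eif2a and Eif2d, which can deliver the initiator tRNA outside the eIF2 route, had log2 fold changes of 0.15 and -0.01 (adjusted p = 0.325 and 0.940).

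Of the 5 subunit genes of the exchange factor eIF2B, Eif2b5, the catalytic epsilon subunit, rose and the other 4 passed no threshold, with a median log2 fold change of 0.20. Eif2b5 had 45.2, 47.7, 47.0, 50.8 and 50.8 CPM in saline and 52.0, 55.2, 62.3, 54.7 and 55.2 CPM in LPS libraries, without overlap. The log2 fold change was 0.21 ± 0.08 (adjusted p = 0.0488) with TMM and -0.06 with total count scaling, and the call was lost in 6 of the 10 fits that left out 1 library (adjusted p up to 0.109), those omitting saline replicates 1 to 4 and LPS replicates 2 and 3. Eif2b1, Eif2b2, Eif2b3 and Eif2b4 had log2 fold changes of 0.06, 0.20, 0.25 and -0.16 (adjusted p = 0.672, 0.197, 0.133 and 0.192). With total count and upper quartile scaling Eif2b4 fell (log2 fold change -0.44 and -0.32, adjusted p = 0.00468 and 0.0161).

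Of the 14 genes of the eIF3 scaffold, Eif3c and Eif3d rose and none fell, with a median log2 fold change of 0.18. This was a share of 14.3% beside the 18.9% of all genes that rose. With total count scaling none rose, and Eif3f, Eif3h and Eif3k fell. Eif3c, a core subunit, had 131, 125, 132, 129 and 149 CPM in saline and 131, 159, 183, 158 and 167 CPM in LPS libraries. Eif3d, a subunit that can bind the cap of some mRNAs, had 27.5, 31.4, 27.2, 25.9 and 25.7 CPM in saline and 29.3, 28.0, 41.3, 33.5 and 37.9 CPM in LPS libraries. Both overlapped between the groups. Their log2 fold changes were 0.26 ± 0.10 and 0.31 ± 0.12 (adjusted p = 0.0441 and 0.0486), and with total count scaling -0.01 and 0.03. Each call was lost in 7 of the 10 fits that left out 1 library (adjusted p up to 0.0973 for Eif3c and 0.108 for Eif3d). Only LPS replicates 1 and 4 and saline replicate 5 could be left out with the Eif3c call kept, and only saline replicate 2 and LPS replicates 1 and 2 with that of Eif3d.

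Without saline replicate 5, 6 of the 14 eIF3 genes rose (42.9%, beside 21.0% of all genes): Eif3c, Eif3a, Eif3b, Eif3e, Eif3j1 and Eif3j2. Eif3b, a core subunit, had 109, 103, 110, 107 and 117 CPM in saline and 123, 118, 153, 121 and 129 CPM in LPS libraries. It was the only eIF3 gene whose groups did not overlap (log2 fold change 0.23 ± 0.09, adjusted p = 0.0510 with all libraries). Eif3a, the largest subunit, ran from 165 to 233 CPM in saline (median 188) and from 199 to 272 in LPS libraries (median 204).

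The most abundant subunit mRNA per length, Eif3h, had 140, 140, 155, 154 and 143 CPM in saline and 149, 140, 173, 148 and 113 CPM in LPS libraries (log2 fold change -0.02 ± 0.11, adjusted p = 0.907). LPS replicate 5 was the lowest LPS library for 7 of the 14 genes (Eif3e, Eif3f, Eif3h, Eif3i, Eif3k, Eif3l and Eif3m), and LPS replicate 3 the highest for 9. Eif3j1 and Eif3j2, near-identical copies that may share reads, had log2 fold changes of 0.37 and 1.08 (adjusted p = 0.0747 and 0.0877). The remaining 6 genes besides Eif3h (Eif3f, Eif3g, Eif3i, Eif3k, Eif3l and Eif3m) had log2 fold changes between -0.10 and 0.16.

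Of 11 tested genes of the cap-binding complex eIF4F and its helpers, 5 rose and none fell, with a median log2 fold change of 0.20. With TMM the 5 were 45.5%, whereas 18.9% of all genes rose and 21.0% fell. With total count scaling 2 rose and 4 fell, with a median of -0.07, beside 12.3% and 41.6% of all genes. The 4 were Eif4a2, Eif4b, Eif4e2 and Eif4g3. The helicase eIF4A, which unwinds mRNA ahead of the ribosome, is encoded by Eif4a1 and Eif4a2, and the paralogs differed in response. The 250 bases before their annotated starts are shown for that contrast, with the same motifs in capitals, from chr11:69672424-69672673 (minus strand) and chr16:23107218-23107467 (plus strand) of GRCm38.p6.
Eif4a1: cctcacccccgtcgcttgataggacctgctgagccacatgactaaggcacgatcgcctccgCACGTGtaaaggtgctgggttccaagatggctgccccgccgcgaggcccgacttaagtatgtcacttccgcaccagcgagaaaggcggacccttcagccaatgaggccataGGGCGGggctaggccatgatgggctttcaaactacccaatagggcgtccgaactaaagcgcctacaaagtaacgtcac
Eif4a2: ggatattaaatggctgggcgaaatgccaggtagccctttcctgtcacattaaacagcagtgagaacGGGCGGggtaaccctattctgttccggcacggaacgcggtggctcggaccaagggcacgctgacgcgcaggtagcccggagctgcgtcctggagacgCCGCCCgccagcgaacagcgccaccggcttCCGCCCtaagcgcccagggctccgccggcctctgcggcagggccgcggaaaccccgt
Eif4a1 held an E-box 189 bases and a GC box 78 bases before the start, and Eif4a2 held GC boxes at 184, 87 and 57 bases, the last pair on the other strand.

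Eif4a1 (chr11:69666936-69672423, minus strand) had 138, 134, 127, 124 and 162 CPM in saline and 200, 176, 280, 202 and 215 CPM in LPS libraries. The groups did not overlap, and LPS replicate 3 was the highest. The log2 fold change was 0.65 ± 0.12 (adjusted p = 0.000763), and 0.39 with total count scaling. Eif4a2 (chr16:23107444-23114136) had 305, 378, 353, 370 and 382 CPM in saline and 302, 346, 341, 413 and 348 CPM in LPS libraries, with overlap (log2 fold change -0.03 ± 0.10, adjusted p = 0.830).

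The ratio of Eif4a1 to Eif4a2 reads within a library was 0.452, 0.355, 0.359, 0.335 and 0.424 in saline and 0.661, 0.510, 0.820, 0.490 and 0.616 in LPS libraries. Each LPS library had a higher ratio than each saline library, by 0.67 on the log2 scale (exact p = 0.00794, adjusted p = 0.0127). Per length, Eif4a2 remained above Eif4a1 on average, with ratios of Eif4a1 to Eif4a2 FPKM of 0.474 ± 0.0621 in saline and 0.763 ± 0.164 in LPS (SD, n = 5), though LPS replicate 3 reached 1.01. A processed pseudogene, Eif4a-ps4, had 35.2 ± 2.99 CPM in saline and 55.4 ± 9.71 in LPS libraries. The log2 ratio of the means was 0.65 for the pseudogene, for Eif4a1 and for their sum, so how the reads were split between them does not move the value.

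Eif4a3, a relative that belongs to the exon junction complex laid down by splicing, had 44.0, 41.5, 45.6, 40.1 and 40.3 CPM in saline and 55.4, 57.1, 68.3, 65.1 and 60.4 CPM in LPS libraries. The groups did not overlap (log2 fold change 0.53 ± 0.09, adjusted p = 0.00021). The cap-binding protein gene Eif4e had 133, 123, 132, 136 and 149 CPM in saline and 129, 154, 132, 171 and 132 CPM in LPS libraries, with overlap. Its log2 fold change was 0.09 ± 0.10 (adjusted p = 0.483), and -0.18 with total count scaling. Its relative Eif4e3 had 37.9, 36.4, 37.7, 41.3 and 41.9 CPM in saline and 55.6, 55.2, 42.6, 55.1 and 48.3 CPM in LPS libraries, without overlap (log2 fold change 0.40 ± 0.09, adjusted p = 0.00413). The ratio of Eif4e3 to Eif4e reads was 0.282 to 0.303 (median 0.285) in saline and 0.322 to 0.431 (median 0.358) in LPS libraries, higher in each LPS library (exact p = 0.00794, adjusted p = 0.0127).

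The scaffold genes Eif4g1 and Eif4g2, the latter for a form that binds no eIF4E, rose, and Eif4g3 passed no threshold with TMM. With total count and upper quartile scaling Eif4g3 fell (log2 fold change -0.38 and -0.27, adjusted p = 0.00502 and 0.0186). Eif4g1 had 458, 387, 439, 427 and 479 CPM in saline and 477, 500, 560, 477 and 581 CPM in LPS libraries. Its log2 fold change was 0.24 ± 0.09 (adjusted p = 0.0434), and -0.02 with total count scaling. Eif4g2 had 954, 886, 923, 904 and 1051 CPM in saline and 981, 1164, 1109, 1164 and 1298 CPM in LPS libraries (log2 fold change 0.28 ± 0.09, adjusted p = 0.0228).

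Saline replicate 5 exceeded the lowest LPS library for both genes. Leaving out saline replicate 2, 3 or 4 or LPS replicate 3 or 5 ended the Eif4g1 call, and leaving out saline replicate 3 or 4 that of Eif4g2 (adjusted p up to 0.0966 and 0.0630). The ratio of Eif4g1 to Eif4g2 reads was 0.464 in saline and 0.454 in LPS (log2 difference -0.03, exact p = 0.643). The ratio of Eif4g3 to Eif4g1 was 0.143, 0.157, 0.129, 0.153 and 0.151 in saline and 0.126, 0.108, 0.102, 0.119 and 0.115 in LPS libraries. It was lower in each LPS library than in each saline library (log2 difference -0.36, exact p = 0.00794, adjusted p = 0.0127). The eIF4A cofactors Eif4b and Eif4h had log2 fold changes of -0.12 and 0.20, and Eif4e2, a repressive cap-binding relative, 0.01 (adjusted p = 0.293, 0.103 and 0.926).

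The 2 expressed 4E-BP genes moved in opposite directions with TMM. Eif4ebp1 had 34.4, 38.6, 36.5, 38.5 and 46.0 CPM in saline and 53.3, 51.4, 51.5, 60.2 and 39.2 CPM in LPS libraries. LPS replicate 5 lay inside the saline range, and the log2 fold change was 0.40 ± 0.12 (adjusted p = 0.0132). With total count and upper quartile scaling the Eif4ebp1 estimate was 0.12 and 0.24 and passed no threshold (adjusted p = 0.312 and 0.0820). Eif4ebp2 (chr10:61428491-61452661, minus strand) had 121, 118, 123, 123 and 96.3 CPM in saline and 72.1, 75.1, 87.8, 76.7 and 72.9 CPM in LPS libraries. Every LPS library was below every saline library, with saline replicate 5 closest to them, and the log2 fold change was -0.59 ± 0.09 (adjusted p = 0.000189), or -0.65 without saline replicate 5.

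The ratio of Eif4ebp1 to Eif4ebp2 reads was 0.284, 0.326, 0.297, 0.314 and 0.478 in saline and 0.739, 0.685, 0.587, 0.785 and 0.537 in LPS libraries. The groups did not overlap, and the log2 difference was 0.98 (exact p = 0.00794, adjusted p = 0.0127). Per length the FPKM ratio of the pair went from 0.895 ± 0.207 to 1.76 ± 0.272 (SD, n = 5), so Eif4ebp2 had the higher mean level in saline and Eif4ebp1 in LPS hearts. The summed FPKM of both over that of Eif4e was 1.69 ± 0.124 in saline and 1.54 ± 0.178 in LPS libraries, ranges that overlapped.

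The ratio of Eif4ebp1 to Eif4e reads was 0.258, 0.314, 0.275, 0.283 and 0.309 in saline and 0.413, 0.334, 0.390, 0.351 and 0.297 in LPS libraries. The groups overlapped (log2 difference 0.30, exact p = 0.0238, adjusted p = 0.0317), and the adjusted p of this exact test was 0.0635 when saline replicate 1, 3 or 4 was omitted and 0.0529 when LPS replicate 3 was. Eif4enif1, the carrier of eIF4E into the nucleus, passed no threshold (log2 fold change 0.14, adjusted p = 0.224).

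**Figure D4:**
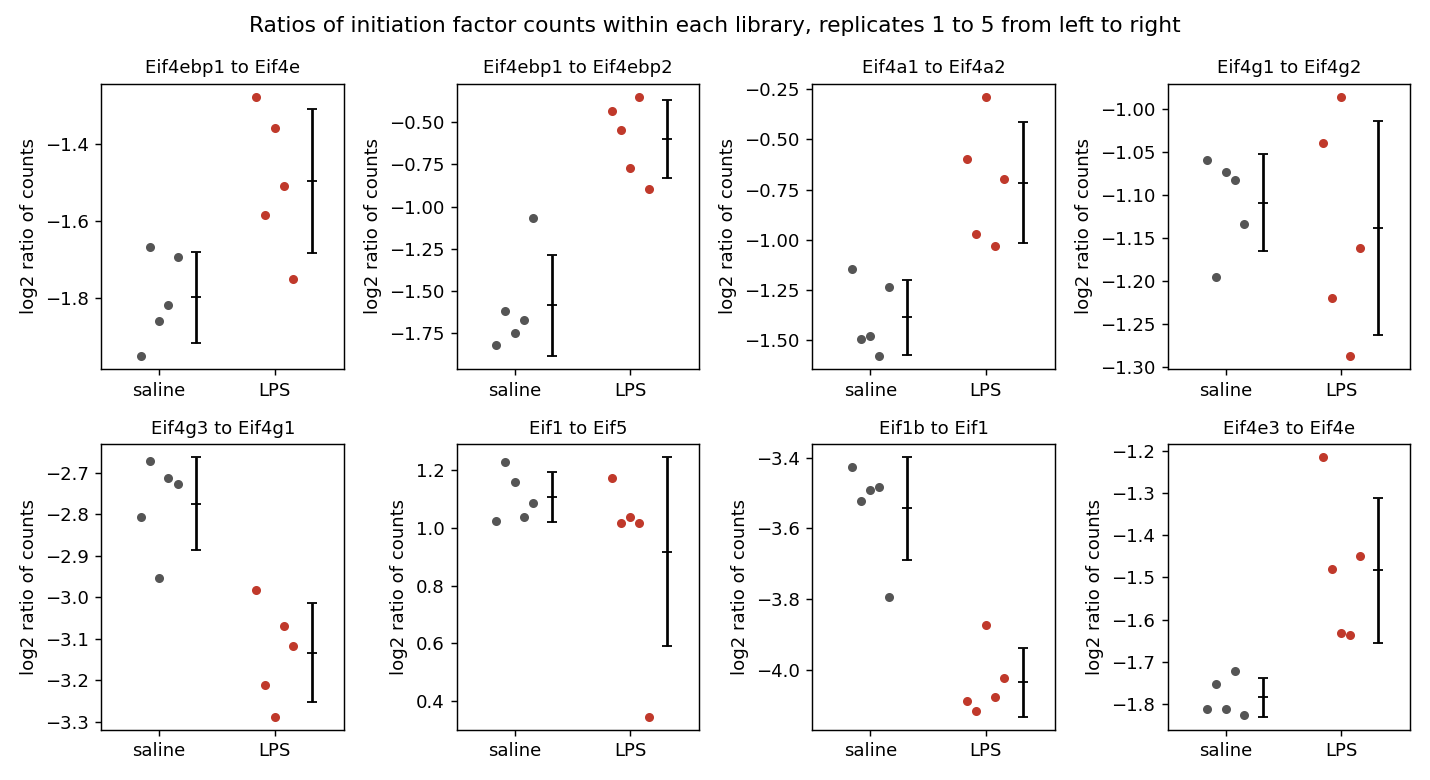
Log2 ratio of the read counts of 2 initiation factors within each library, for the 8 ratios tested, with 5 saline (grey) and 5 LPS (red) libraries and mean ± SD beside them. The groups do not overlap for 5 ratios, and overlap for Eif4ebp1 to Eif4e, Eif4g1 to Eif4g2 and Eif1 to Eif5.

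The eIF5A genes also moved in opposite directions with TMM. Eif5a, which helps ribosomes through difficult stretches and carries the modified lysine hypusine, had 255, 227, 255, 226 and 250 CPM in saline and 372, 310, 362, 344 and 258 CPM in LPS libraries. The groups did not overlap, LPS replicate 5 being the lowest of its group, and the log2 fold change was 0.44 ± 0.10 (adjusted p = 0.00387). With total count scaling the Eif5a estimate was 0.17 and passed no threshold (adjusted p = 0.216), and with upper quartile scaling it was 0.28 (adjusted p = 0.0349). Eif5a2 (chr3:28781276-28798846), the scarce paralog, had 3.91, 3.79, 3.53, 3.65 and 2.32 CPM in saline and 1.38, 1.01, 0.614, 1.39 and 1.31 CPM in LPS libraries. Every LPS library was below every saline library (log2 fold change -1.60 ± 0.26, adjusted p = 0.000217, or -1.71 without saline replicate 5). Its saline level per length was 0.719 FPKM beside 107 for Eif5a.

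Eif6 (chr2:155819832-155826925, minus strand), which keeps the large ribosomal subunit from joining the small one and serves in its assembly, had 21.7, 22.2, 19.6, 21.4 and 21.6 CPM in saline and 50.4, 35.6, 49.2, 52.9 and 41.8 CPM in LPS libraries. Each LPS library exceeded every saline library, and saline replicate 5 was like the other saline libraries here. The log2 fold change was 1.11 ± 0.11 (adjusted p = 3.85e-06), 1.12 without saline replicate 5 and 0.84 with total count scaling. It had the smallest adjusted p of the 49 factors.

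**Figure D5:**
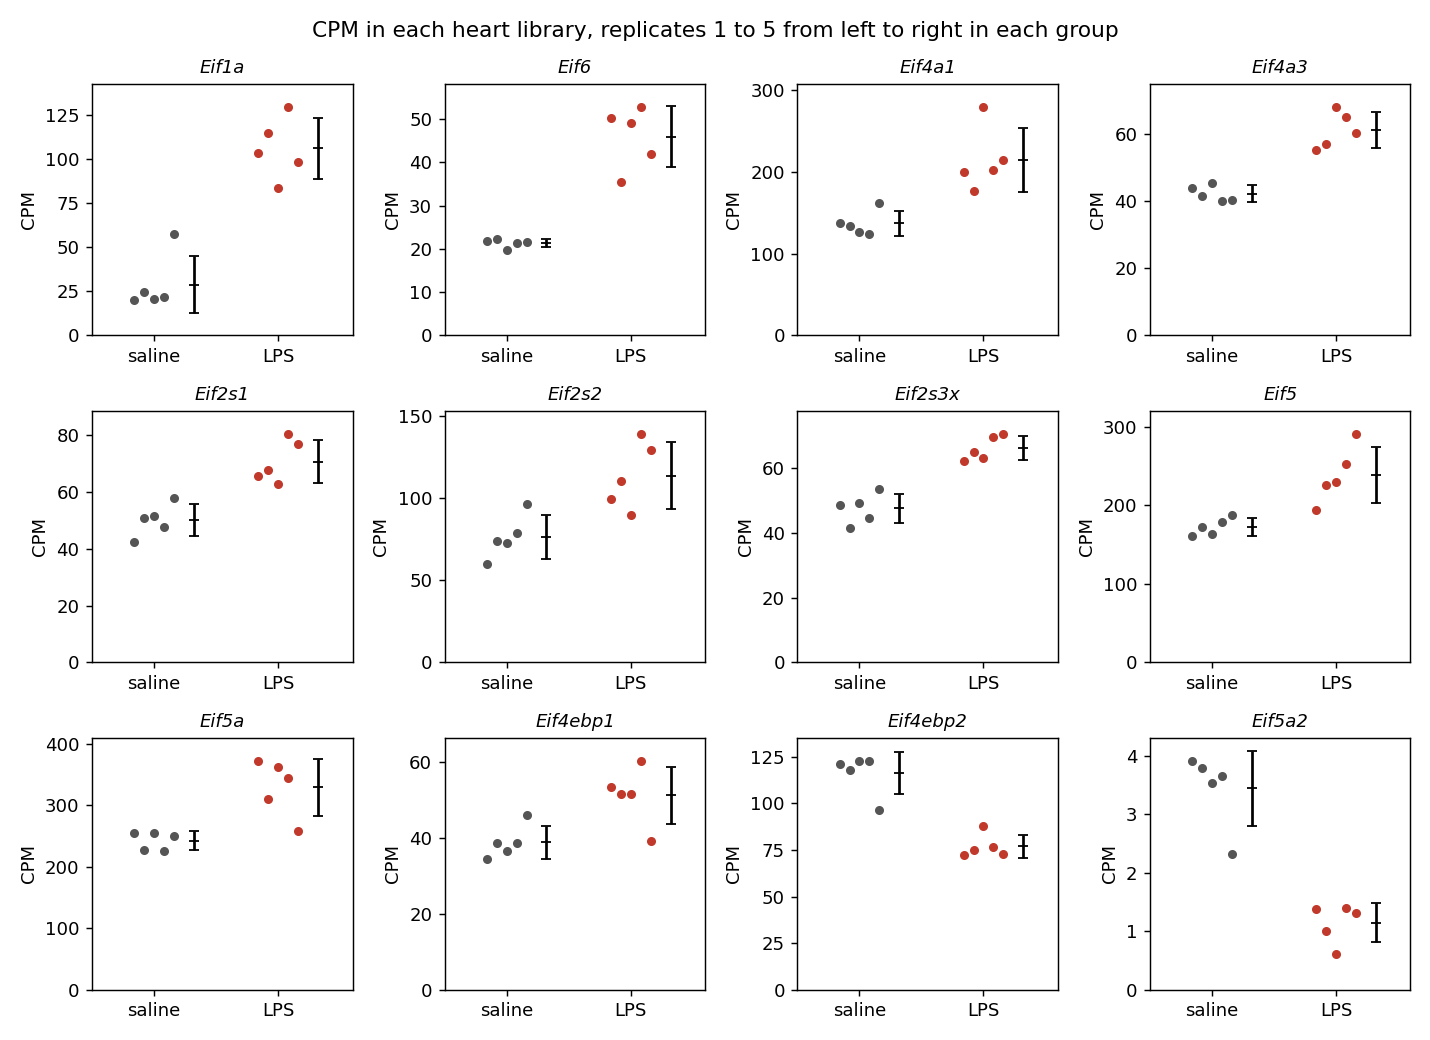
CPM of 12 initiation factors in each library (replicates 1 to 5 from left to right, saline grey, LPS red), with mean ± SD of 5 libraries beside each group and axes from 0. Eif1a, Eif6, Eif4a1, Eif4a3, Eif2s1, Eif2s3x, Eif5 and Eif5a lie higher in every LPS library, Eif4ebp2 and Eif5a2 lower, and Eif2s2 and Eif4ebp1 overlap.

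The 54 genes that act on or with the initiation factors were all tested. With TMM scaling 14 of them rose (25.9%) and 7 fell (13.0%), beside 18.9% and 21.0% of all genes. With total count scaling 11 rose (20.4%) and 22 fell (40.7%), beside 12.3% and 41.6% of all genes. The 54 had a median log2 fold change of 0.05 with TMM. Among the 4 kinases of eIF2, Eif2ak2 (PKR, activated by double-stranded RNA and itself induced by interferon) rose, Eif2ak3 (PERK, of the endoplasmic reticulum) fell, and Eif2ak1 (HRI) and Eif2ak4 (GCN2) passed no threshold. Eif2ak2 had 16.4, 36.2, 15.6, 15.9 and 105 CPM in saline and 321, 350, 198, 344 and 314 CPM in LPS libraries. The groups did not overlap, with saline replicate 5 again above the other saline libraries. The log2 fold change was 3.01 ± 0.63 (adjusted p = 0.00534), and 3.86 without that library.

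Eif2ak3 had 15.4, 11.9, 11.6, 12.3 and 7.01 CPM in saline and 2.70, 2.02, 4.18, 3.03 and 5.31 CPM in LPS libraries, lower in every LPS library (log2 fold change -1.75 ± 0.26, adjusted p = 0.000113). Eif2ak1 had 29.6 ± 1.56 and 29.0 ± 5.27 CPM (adjusted p = 0.857), and Eif2ak4 9.87 ± 0.836 and 9.38 ± 2.13 CPM (SD, n = 5; adjusted p = 0.732) in saline and LPS libraries. Ppp1r15a, which directs a phosphatase to eIF2, rose by 1.56 on the log2 scale (adjusted p = 0.00258). Among the products of the stress response downstream of eIF2, Atf4 mRNA, for a transcription factor, rose by 0.74, whereas that of Ddit3 (CHOP) fell by 0.84 (adjusted p = 3.33e-05 and 0.000374).

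Among signalling genes, Rps6ka3, for a ribosomal S6 kinase of the RSK family, rose by 1.63 and Larp1, a repressor of mRNAs with a terminal oligopyrimidine tract, by 1.05 (adjusted p = 2.1e-05 and 7.77e-06). Rps6ka1, of the same family, fell by 1.89, and Ddit4, an inhibitor of mTOR, fell by 1.37 (adjusted p = 9.89e-05 and 0.0104). Pdcd4, an inhibitor of eIF4A, fell by 1.08 (adjusted p = 0.000193), and Impact, an inhibitor of GCN2, fell by 0.94 (adjusted p = 0.000205). Eef1e1, a scaffold protein of the tRNA synthetase complex, rose by 0.76 (adjusted p = 0.000147). These calls held in each fit that left out 1 library.

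Other parts of the translation machinery are given for comparison. Of 75 tested cytosolic ribosomal protein genes, 1 rose and 3 fell, with a median log2 fold change of -0.10, and 1 rose and 26 fell with total count scaling. Of 20 cytosolic aminoacyl-tRNA synthetase genes, which charge tRNAs, 11 rose and none fell, with a median of 0.27, and 6 rose and 1 fell with total count scaling. Of all tested genes 18.9% rose and 21.0% fell with TMM, and 12.3% and 41.6% with total count scaling. With TMM, the 36.7% of initiation factors that rose stand between the ribosomal protein genes (1.33%) and the synthetases (55.0%), as does their median of 0.20. The share that fell was nearly the same for initiation factors (4.08%, 2 of 49) and ribosomal protein genes (4.0%, 3 of 75), and was 0% for the synthetases. With total count scaling 24.5% of initiation factors fell, between the ribosomal protein genes (34.7%) and the synthetases (5.0%). No test of the difference between lists was made.

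In the authors' deposited table of Reactome terms, the term for eukaryotic translation initiation held 59 genes, of which 15 were listed up and 1 down, with a p-value of 0.956 and an adjusted p-value of 1. Over all terms of the authors' deposited table, 17 initiation factors appeared among genes up and 1, Eif5a2, among genes down. Of these 17, 13 (76.5%) rose here, which is 72.2% of the 18 that rose here. Those of the authors' deposited table that passed no threshold here were Eif3b, Eif3e, Eif3j2 and Eif4h. The 5 that rose here and were not among the 17 were Eif1, Eif1a, Eif4g2, Eif5 and Eif6. The background of that table held 7776 genes, and a gene outside every Reactome term cannot appear in it. Absence from it therefore does not show that the authors did not call a gene.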

How the data were processed

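Gene expression was measured by RNA-seq in hearts of 5 saline and 5 LPS mice (Trizol total RNA and a TruSeq kit, per the labels' protocols). The authors deposited raw read counts per gene and FPKM (scaled by the authors to gene length and library size) for 54532 genes in 1 table. Bowtie 0.12.2 and the mm9 build appear in the submitters' processing notes without a role. The gene coordinates equal those of GENCODE M21 (GRCm38) for 48 of the 51 members, so they are given as GRCm38. Neither the counting tool nor strand use is stated in these sources. Exons of 8 members, none of them called, overlap a gene of at least 100 reads on the other strand: Eif1ad, Eif2a, Eif2b4, Eif2d, Eif3j1, Eif3m, Eif4a2 and Eif5b. P-values and adjusted p-values per Reactome term are the authors' own, as deposited. Columns of 2 further tables, 20 in all, were not used: their LPS columns are named for 3 h, whereas the labels and the count table give 24 h.

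Counts were tested in R 4.3.3 with edgeR 4.0.16 (filterByExpr with minimum count 10 and minimum total 15, TMM, robust quasi-likelihood F-test, Benjamini-Hochberg over 13864 genes, threshold 0.05). SE came from the F statistic. Ratios of 2 genes' counts within a library were compared by exact permutation over 252 assignments, adjusted over 8 ratios. FPKM entered no test. Other settings tried were scaling by RLE, upper quartile or total count, no filter or one of 1 CPM in at least 5 libraries, DESeq2 1.42.0, voom from limma 3.58.1, a replicate block, and each library left out. On simulated data of 13864 genes for this comparison, 22 of 50 genes changed 1.5-fold, 36 of 50 changed 2-fold, 48 of 50 changed 4-fold and 50 of 50 changed 8-fold were recovered, and 5 of 161 calls were false. The simulated libraries took the TMM factors of the data and far fewer genes were changed than were called in the data. It therefore cannot test the choice of scaling, and its recovery need not hold for these data.

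The members, gene lists and motifs were chosen with earlier results of these data known. Per-library values are given for called members (up to 4 per direction and complex, by size), the most abundant of each complex and members of the ratios. Of these, Eif1ax is given by group means and read shares, and Eif4g3 by its ratio to Eif4g1. Eif3b, and Eif3a by range and median, were chosen after their values were seen. Of the other translation genes, up to 6 per direction by size and the 4 eIF2 kinases are named. Promoters come from RefSeq (GRCm38.p6), where 39 of 51 members matched by symbol. Those of Eif1a, Eif2b3, Eif3e, Eif3h, Eif3i, Eif3j2, Eif4e1b, Eif4e3, Eif4ebp1, Eif4ebp3, Eif4g2 and Eif6 were not matched.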

Additional observations from a re-analysis of the deposited data

Results flagged for a closer look

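One library lay apart from the other 4 of its group in 8 of 114 sets of 5 values examined, by Dixon's test at the 0.71 critical value. Chance gives about 1 in 20 such sets. Saline replicate 5 was the library apart in 5 of the 8. It was the highest saline library for Eif1a at 57.4 CPM (others 20.0 to 24.4), and the lowest for Eif4ebp2 at 96.3 CPM (others 118 to 123) and for Eif5a2 at 2.32 CPM (others 3.53 to 3.91). Its log2 ratio of Eif4ebp1 to Eif4ebp2 was the highest at -1.07 (others -1.82 to -1.62), and that of Eif1b to Eif1 the lowest at -3.79 (others -3.52 to -3.43). In each of these 5 it lay on the side of the LPS libraries. Its interferon-response sum of 4180 CPM was above the other saline libraries' too, and the part of that state in these values was not tested.

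Among LPS libraries, replicate 3 was the highest for Eif2b2 at 25.2 CPM (others 18.0 to 18.7). LPS replicate 5 was the highest for Eif3a at 272 CPM (others 199 to 210), and its log2 ratio of Eif1 to Eif5 was the lowest at 0.35 (others 1.02 to 1.17).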

How the results depend on the processing

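With upper quartile scaling 10 factors rose (20.4%) and 6 fell (12.2%), beside 14.4% and 31.8% of all genes. With total count scaling 5 rose (10.2%) and 12 fell (24.5%), beside 12.3% and 41.6% of all genes. Of the 54 genes acting with the factors 13 (24.1%) and 22 (40.7%) fell under these 2 scalings, no larger shares than among all genes. Of the 49 factors, TMM gave 38 a positive estimate, upper quartile scaling 29 and total count scaling 16. Among the called factors and members of the ratios, those that turned negative with total count scaling include Eif1 (-0.0042), Eif1ax (-0.062), Eif2b5 (-0.059), Eif3c (-0.0054), Eif4g1 (-0.022) and Eif4e (-0.18). The estimate of Eif4e was -0.063 with upper quartile scaling. Eif3h turned to 0.0062 with RLE scaling and 0.0065 with DESeq2. RLE gave 20 rising factors, no filter 14, a filter of 1 CPM 19, DESeq2 23 and voom 18, each with 2 falling. Of all genes 20.4%, 10.7%, 19.2%, 21.5% and 19.3% rose under these settings in the same order, and 19.9%, 11.5%, 21.4%, 21.0% and 21.2% fell. Leaving out 1 library gave 11 to 23 rising factors (16.3% to 21.0% of all genes rose), -0.079 to 0.064 for Eif3h and -0.071 to 0.022 for Eif4a2. For the log2 ratios it gave 0.25 to 0.37 (Eif4ebp1 to Eif4e), -0.068 to 0.0074 (Eif4g1 to Eif4g2, above 0 only without LPS replicate 4) and -0.25 to -0.045 (Eif1 to Eif5). Apart from the scalings and fewer libraries, the cause of these changes was not tested.

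Same-numbered libraries correlated at -0.07 to 0.18, and 1 of 5 best with its own number. The labels do not say whether a shared number means a pair, and these few correlations cannot settle it. With the replicate block 15 factors rose (12 of the 18) and 2 fell, beside 18.6% and 20.5% of all genes. The exact paired permutation test of the ratios, over 32 sign flips, cannot go below p = 0.0625: for Eif4ebp1 to Eif4e (0.30) the adjusted p was 0.167, and for Eif4ebp1 to Eif4ebp2 (0.98), Eif4a1 to Eif4a2 (0.67), Eif4g3 to Eif4g1 (-0.36), Eif1b to Eif1 (-0.49) and Eif4e3 to Eif4e (0.30) it was 0.1. Depth limits Eif5a2 and Eif3j2 most, the tested factors with the fewest reads.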
